A study of Mus musculus with 3072 samples.

Results

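Solute carriers are the membrane proteins that move nutrients, ions, metals and metabolites across the plasma membrane and across the membranes of mitochondria, Golgi and lysosomes, and their genes carry Slc symbols. The set described here holds the mouse Slc genes that had a read in at least 10% of the cells of 1 or more of 6 groups of sorted microglia, the resident macrophages of the brain: 74 genes passed in all 6 groups and 41 in 1 to 5 of them, 14 of these in 1 group only. Together they are 33.9% of the Slc genes in the count table. With Slc2a1, Slc11a1, Slc11a2 and Slc40a1, which the rule leaves out, 35.1% passed the limit, and 89 Slc genes had no read in any cell. For comparison, 7682 of all 29474 genes passed the same limit. The members were chosen by the measured share of cells with a read, so those shares are given as a description and nothing is supported with them. Just inside the limit were Slc25a20 (10.1%), Slc41a3 (10.1%) and Slc39a8 (10.2%), and just outside it Slc41a1 (9.97%), Slc35e3 (9.89%) and Slc39a12 (9.58%). A limit of 20% would give 64 members, and a limit of 5% would take in 44.8% of the Slc genes. 3 members share an Slc symbol without being carriers: the scaffold gene Slc9a3r1, the adaptor gene Slc4a1ap and Slc7a6os.

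The study asked how amyloid and Apoe, which encodes the lipid-carrying apolipoprotein E, bear on microglia of aged male mice. APP/PS1 mice carry the APPswe and PS1dE9 transgenes and form amyloid plaques, and APP/PS1-ApoeKO mice are homozygous for an Apoe null allele as well, from a cross with a C57Bl/6-Apoe null breeder. APP/PS1 cortex and hippocampus were taken at 17 months, and the cortex and hippocampus of APP/PS1-ApoeKO and the cortex of C57BL/6 and C57BL/6-ApoeKO at 18 months. Live CD11b+ and DAPI- cells were sorted singly and read with a modified SmartSeq2 protocol without molecular identifiers. All 4 strains had moved between laboratories and were housed for at least 1 month before use. No animal is named in the labels. Each group is therefore 1 sample, and no ratio between groups has a replicate check. Of the 1713 cells used, 18.2% came from APP/PS1 cortex, 15.9% from APP/PS1 hippocampus, 9.87% from APP/PS1-ApoeKO cortex, 18.7% from APP/PS1-ApoeKO hippocampus, 19.03% from C57BL/6 cortex and 18.3% from C57BL/6-ApoeKO cortex. Series of 6 values below follow this order. APP/PS1 mice of 18 months are not analysed here. Age thus differs by 1 month between APP/PS1 and every other genotype. Age and sequencing lane cannot be told apart from Apoe genotype in the APP/PS1 pairs, nor from amyloid where APP/PS1 is set against C57BL/6.

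Carriers work in groups. The heavy chain encoded by Slc3a2 brings amino acid exchangers such as those of Slc7a5, Slc7a7, Slc7a8 and Slc7a11 to the cell surface, mitochondrial carriers of the Slc25 family exchange nucleotides, phosphate and organic acids across the inner membrane, and Slc35 proteins bring activated sugars and sulfate into the Golgi for glycosylation and sulfation. Slc2a5, the gene of a fructose carrier, is known as a marker of microglia. The cystine and glutamate exchanger encoded by Slc7a11 supplies cysteine for glutathione, and its gene is a textbook target of the amino acid response.

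4 upstream sequences are printed first: Slc35c1 (GDP-fucose transporter of the Golgi), Slc46a1 (proton-coupled folate transporter) and Slc5a10 (sodium-coupled mannose and fructose transporter) had more reads without Apoe in all 3 pairs below, and Slc7a11 is shown for its amino acid response elements. Each is the 250 bases before the RefSeq transcription start (GRCm38.p6), written 5′ to 3′ on the strand of the gene. They lie at chr2:92460519-92460768 (minus strand), chr11:78465451-78465700 (plus strand), chr11:61720800-61721049 (minus strand) and chr3:50443614-50443863 (minus strand). Capitals mark matches on either strand to any of 6 motifs: the GC box GGGCGG, the E-box CACGTG, the antioxidant response element TGACNNNGC, the amino acid response element TGATGNAA, the ETS motif GAGGAAGT and the interferon-stimulated response element, which is GAAA, any 2 bases and GAAA again.
Slc35c1: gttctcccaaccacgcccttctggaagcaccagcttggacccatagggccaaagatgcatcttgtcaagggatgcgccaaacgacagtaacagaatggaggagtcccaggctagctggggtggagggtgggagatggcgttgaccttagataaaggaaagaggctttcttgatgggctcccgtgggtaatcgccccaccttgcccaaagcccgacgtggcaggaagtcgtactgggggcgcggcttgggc
Slc46a1: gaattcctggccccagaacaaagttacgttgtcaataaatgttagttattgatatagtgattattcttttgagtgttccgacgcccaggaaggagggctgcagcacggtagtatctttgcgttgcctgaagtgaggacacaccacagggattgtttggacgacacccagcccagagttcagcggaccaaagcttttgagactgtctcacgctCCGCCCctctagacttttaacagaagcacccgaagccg
Slc5a10: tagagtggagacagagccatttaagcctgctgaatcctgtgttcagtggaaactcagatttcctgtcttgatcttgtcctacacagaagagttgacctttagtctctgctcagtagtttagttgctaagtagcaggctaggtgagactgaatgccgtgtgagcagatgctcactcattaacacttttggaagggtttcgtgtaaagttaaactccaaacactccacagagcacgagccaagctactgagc
Slc7a11: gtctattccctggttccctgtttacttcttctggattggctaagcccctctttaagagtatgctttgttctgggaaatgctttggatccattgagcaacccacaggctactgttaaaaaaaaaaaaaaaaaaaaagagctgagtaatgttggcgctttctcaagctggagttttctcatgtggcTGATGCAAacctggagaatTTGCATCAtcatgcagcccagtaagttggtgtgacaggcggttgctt
The capitals in Slc46a1 are 1 GC box on the opposite strand, and those in Slc7a11 are 2 matches to the amino acid response element, 1 on each strand. An upstream sequence was matched by symbol for 89 members and for 20595 genes in all. The amino acid response element was found in 4 members (4.49%: Slc50a1, Slc7a11, Slc7a7 and Slc9a9) and in 3.32% of all 250-base windows. The GC box was found in 59.6% of member windows and 39.4% of all, the E-box in 11.2% and 6.41%, the antioxidant response element in 16.9% and 10.5%, and the ETS motif in 2.25% and 2.34%. The interferon-stimulated response element was found in 0 of 89 member windows and in 3.00% of all. These are descriptions of letters and not of bound sites. The 20595 genes were not limited to those read in these cells, as the members were, so the 2 sets of windows are unlike.

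The Apoe genotypes could be checked on the gene itself: Apoe, on chromosome 7, stood at 13406 and 11919 RPM (the reads of a gene scaled to 1000000 reads of its group) in APP/PS1 cortex and hippocampus and at 485 in C57BL/6 cortex, against 0.0669, 0.745 and 2.96 in the 3 ApoeKO groups. The groups held between 74767907 and 241536311 reads, and the median cell between 442917 and 765704. 12 microglia markers summed to between 57588 and 73057 RPM and all 12 were read in every group. The other cell types' lists summed to far less: neuron markers 2.46 to 16.4 RPM, astrocyte 14 to 32.2, oligodendrocyte 62.5 to 106.7, endothelial and mural 5.02 to 28.6, monocyte 3.21 to 28.3, border-associated macrophage 0.389 to 9.54, T, NK and B cell 14.5 to 31.3 and neutrophil 0 to 0.596. 8 markers of activated microglia (Cst7, Clec7a, Itgax, Axl, Lpl, Spp1, Csf1, Igf1) summed to 1022, 355.03, 249.96, 361.2, 49.8 and 148.9 RPM, so this activation signal differed between the groups compared below, and its part in the carriers' ratios was not tested.

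The members together took 10298, 10597, 11298, 11319, 11331 and 11940 RPM in the 6 groups. Their levels are compared with each other per kilobase of exon (RPKM, averaged over the groups). The highest was Slc2a5 at 307.9 RPKM, followed by Slc25a5, the gene of an ADP/ATP carrier, at 215.8, Slc3a2 at 135.9 and Slc7a8, which encodes a large neutral amino acid exchanger, at 116.2. The plot of levels by class shows how each group of carriers spreads below its leading gene.

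**Figure D1:**
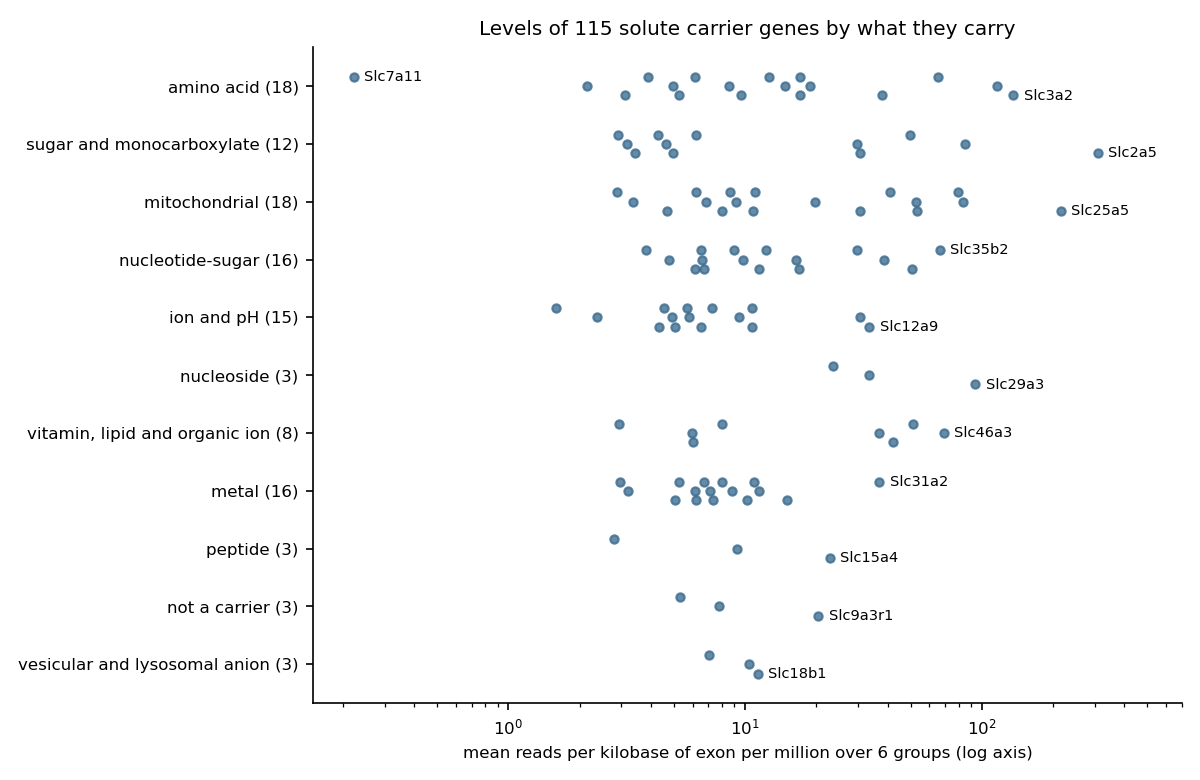
Level of each member (1 point each) as the mean RPKM over the 6 groups, on a log axis, by class of cargo, with the number of members in parentheses and the highest member of each class named. Slc2a5 is highest at 307.9, and Slc7a11 lies lowest of all at 0.222.

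Among the 18 amino acid carriers, the exchangers that pair with the Slc3a2 heavy chain were read at very different levels per length. Slc7a8 stood at 116.2 RPKM and Slc7a7, a cationic and neutral amino acid exchanger, at 65.2, whereas Slc7a6 stood at 12.6, Slc7a5, the gene of the LAT1 exchanger for large neutral amino acids, at 3.90 and Slc7a11 at 0.222. Slc3a2 itself varied little, with 466, 447, 419.6, 503, 533 and 509 RPM. Slc7a8 had 415, 494, 628, 628, 577 and 747 RPM, lower in both APP/PS1 groups than in the other 4. Slc1a3, which encodes a glutamate carrier also typical of astrocytes, had 278.6, 342.2, 358.5, 345.4, 283.2 and 326.7 RPM, while the 6 astrocyte markers summed to at most 32.2 RPM in any group. The lysosomal amino acid sensor gene Slc38a9 was read at 5.23 RPKM.

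Of the 12 sugar and monocarboxylate carriers, Slc2a5 had 982, 1069, 768, 962, 1421 and 1083 RPM, highest in C57BL/6 cortex. Slc50a1, a sugar efflux gene at 84.7 RPKM, was the most even member, with 129.6, 119.5, 129.1, 126.1, 122.3 and 117.9 RPM. Of the 18 mitochondrial genes, Slc25a11 (oxoglutarate and malate carrier) stood at 82.99 RPKM, Slc25a45 at 79.5, Slc25a4 (ADP/ATP carrier) at 53.01 and Slc25a3 (phosphate carrier) at 52.6. Slc25a5 had 321.002, 294.955, 338.4, 345.1, 448 and 383.5 RPM. The nucleoside carrier gene of lysosomes, Slc29a3, stood at 93.9 RPKM with 559, 639, 582, 427, 549 and 529 RPM.

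16 members belong to the nucleotide-sugar group, led by Slc35b2, the transporter of the sulfate donor PAPS, at 66.5 RPKM and by Slc35c2 at 50.6. Among the 8 vitamin, lipid and organic ion carriers, the lysosomal Slc46a3 (69) and the folate transporter Slc46a1 (51.02) were highest. The 15 ion and pH members were led by Slc12a9 (33.5) and by Slc9a9, an endosomal sodium and proton exchanger gene (30.6), the 16 metal members by the copper gene Slc31a2 (36.9), the 3 peptide members by Slc15a4 (22.8), a lysosomal histidine and peptide carrier, and the 3 vesicular members by Slc18b1 (11.3). The deposited counts do not say how reads in overlapping genes were assigned. 80.7% of the exon length of Slc39a7 overlaps another gene on the same strand, so its level is uncertain. Opposite-strand overlaps cover 32.02% of Slc33a1 and 16.8% of Slc5a10.

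Across the 6 groups the highest level was under 2 times the lowest in 67 members (58.3%), against 62.1% of the 7682 genes. It was 4 times the lowest or more in 8 members (6.96%, against 7.09% of all): Slc15a2 (4.10), Slc35b3 (5.82), Slc26a11 (5.96), Slc7a1 (6.09), Slc12a7 (6.56), Slc7a11 (11.2), Slc5a10 (12.4) and Slc35c1 (12.6). The carriers as a set were thus about as even as other genes read in these cells, and the values by group show where the 8 exceptions lay. In sums over cells, fewer expressing cells and less RNA per cell cannot be told apart. Intervals given for ratios are exact 95% intervals of read counts, which take each read as independent. Reads of 1 molecule are not independent, so these intervals understate the error of counting. Differences between cells or animals are not in them either.

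**Figure D2:**
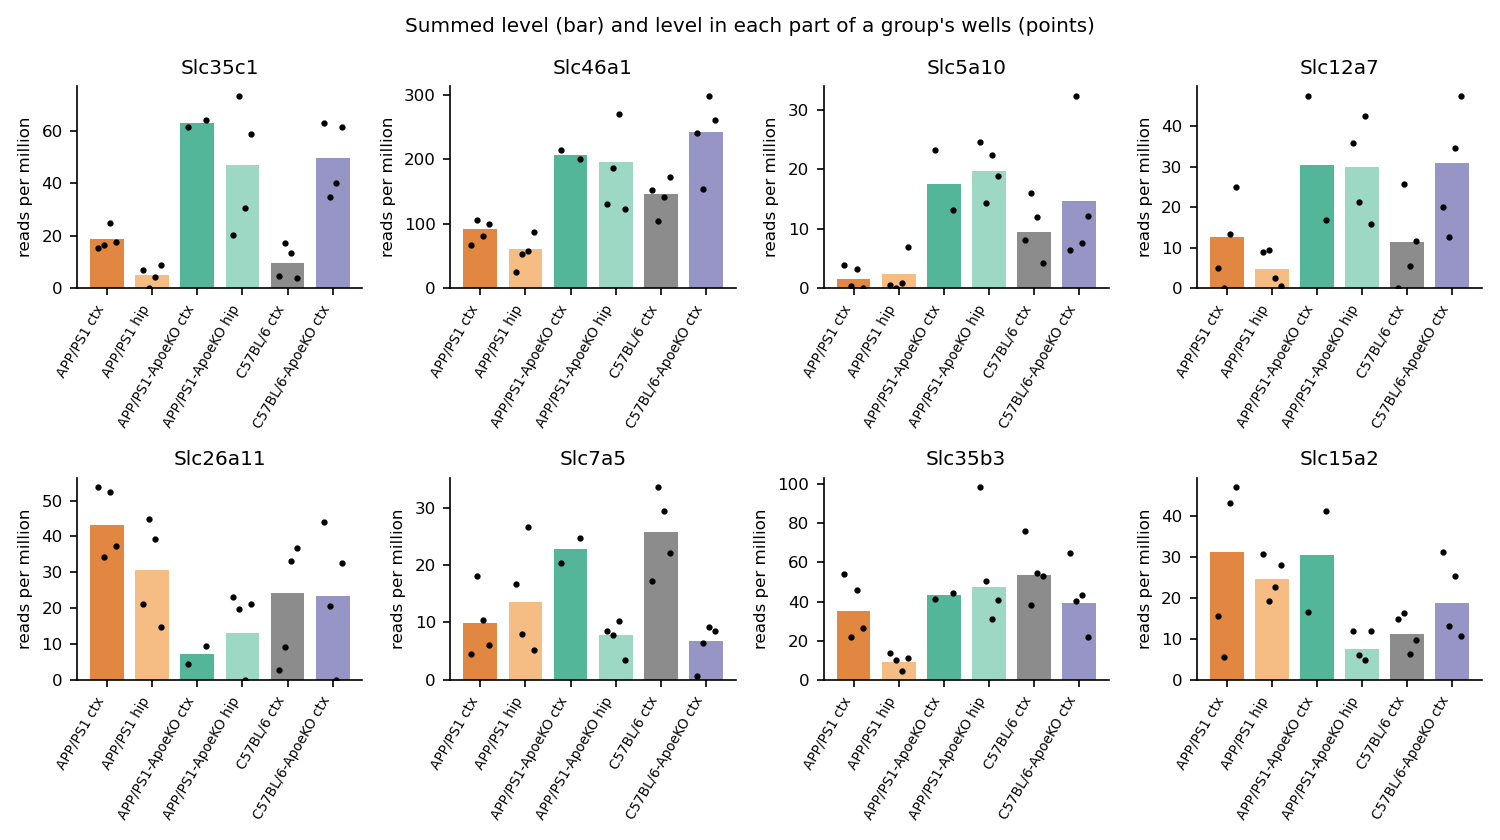
Levels in RPM of 8 members in the 6 groups (ctx, cortex, and hip, hippocampus). Bars are the level over all cells of a group and points the level in each part of its wells (4 parts, or 2 in APP/PS1-ApoeKO cortex), and all axes start at 0. For Slc35c1, every point of the ApoeKO groups lies above every point of the other groups of the same tissue and background.

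Apoe loss was compared in 3 pairs of groups that share no cells. At least 2-fold more reads were found in 11 members in APP/PS1 cortex (9.57%, against 8.84% of all 7682 genes), in 12 in APP/PS1 hippocampus (10.4%, against 5.10%) and in 5 in C57BL/6 cortex (4.35%, against 3.32%). At least 2-fold fewer reads were found in 5 members (4.35%, against 3.92%), 3 (2.61%, against 3.57%) and 4 (3.48%, against 2.86%). The shares of members in APP/PS1 cortex and C57BL/6 cortex were therefore near those of all genes. Among the higher members in APP/PS1 hippocampus, Slc12a7 and Slc5a10 had passed the limit for members only in the ApoeKO group of that pair. The members' median log2 ratio, with 0.5 RPM added to both levels, was 0.06, 0.11 and 0.14, against 0.16, 0.05 and 0.03 for all genes. 2 members, Slc35c1 and Slc12a7, were at least 2-fold higher in all 3 pairs, as were 57 genes in all (0.742%). No member was at least 2-fold lower in all 3, against 63 genes (0.820%).

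The wells of each group can be split into parts by the plate number in the labels, which differs from the digit that opens the well name in the titles for 13.8% of the cells, by columns of wells. Where parts made by that digit give another answer for a member described below, this is said. These parts did not overlap for 9 of the higher members in APP/PS1 cortex (7.83%, against 6.80% of all genes), for 7 in APP/PS1 hippocampus (6.09%, against 2.53%) and for 2 in C57BL/6 cortex (1.74%, against 1.51%). Of the lower members this held for 4 (3.48%, against 2.72%), 1 (0.87%, against 1.76%) and 1 (0.87%, against 1.65%). The share of cells with a read, after each cell was thinned to 100000 reads, is given as a description. Among members read in at least 10% of thinned cells of either group, 0 of 95 were at least 2-fold higher in APP/PS1 cortex (2.47% of all genes), 5 of 91 in hippocampus (2.40%) and 1 of 90 in C57BL/6 cortex (1.34%). By share 3 were lower in APP/PS1 cortex (3.23% of all genes), 2 in hippocampus (1.79%) and 3 in C57BL/6 cortex (1.56%). In APP/PS1 hippocampus the 5 higher members by share were Slc35b3, Slc35c1, Slc46a1, Slc5a10 and Slc7a6, and Slc7a11 was among the lower ones in each pair.

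Slc35c1 (ENSMUSG00000049922, chr2:92452764-92460538, minus strand), whose GDP-fucose cargo is the donor for fucosylation, was the member with the widest range. Its 6 levels were 18.9, 4.998, 62.9, 47.1, 9.42 and 49.8 RPM, so each ApoeKO group stood above each group with Apoe. Apoe loss went with 3.32-fold more reads (interval 3.18 to 3.47) in APP/PS1 cortex. In APP/PS1 hippocampus the ratio was 9.42 (8.75 to 10.2), and in C57BL/6 cortex 5.29 (5.05 to 5.54). In none of the 3 pairs did the parts of wells overlap: 61.5 to 64.01 against 15.3 to 24.8 RPM, 20.4 to 73.4 against 0.244 to 8.82, and 34.8 to 62.9 against 3.84 to 17.2. In the last pair both groups shared their 2 lanes, and the level was 46.7 against 10.6 RPM in lane 37 and 52.8 against 8.38 in lane 38. Further APP/PS1-ApoeKO cortex cells of another lane, whose depth is not in the labels, had 42.6 RPM. After each cell was thinned to 100000 reads, Slc35c1 was read in 17.7%, 8.46%, 19.5%, 17.6%, 8.59% and 19.2% of cells (20.9%, 10.3%, 20.7%, 20.6%, 9.51% and 21.4% before thinning), so in APP/PS1 cortex the share was similar while the level was not. Among cells with a read, the median was 61.98, 37.9, 243.9, 125.5, 85.7 and 122.1 RPM.

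Slc46a1 (ENSMUSG00000020829, chr11:78465697-78472059, plus strand), which carries folate into the cell with protons, had 91.4, 60.6, 206.6, 195.9, 146.4 and 241.9 RPM. Both APP/PS1 groups with Apoe were lowest. Without Apoe the level was 2.26-fold higher (2.21 to 2.31) in the cortex of APP/PS1 mice, 3.23-fold (3.16 to 3.31) in their hippocampus and 1.65-fold (1.63 to 1.68) in C57BL/6 cortex. The well parts did not overlap in the APP/PS1 pairs (200.7 to 214.2 against 67.7 to 106.1, and 122.6 to 269.6 against 24.4 to 86.4 RPM) but did in the C57BL/6 pair (153.96 to 298.7 against 104.1 to 173.2). Thinned shares of cells were 18.97%, 11.8%, 30.2%, 34.2%, 28.5% and 36.04%, and the median among cells with a read stayed between 391 and 536 RPM, a narrower range than that of the shares. Its lysosomal relative Slc46a3 had 100.6, 143.4, 252.5, 184.7, 150.9 and 185.6 RPM, 2.51-fold higher without Apoe in APP/PS1 cortex (2.46 to 2.56) and 1.29- and 1.23-fold higher in the other 2 pairs. The other lane of APP/PS1-ApoeKO cortex had 149.7 RPM of Slc46a3, under 2-fold above APP/PS1 cortex.

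Slc5a10 (ENSMUSG00000042371) and Slc12a7 (ENSMUSG00000017756, the gene of a potassium and chloride cotransporter) were read in few cells. Slc5a10 had 1.59, 2.42, 17.6, 19.7, 9.40 and 14.7 RPM, lowest in both APP/PS1 groups. Its ratio without Apoe was 11.03 (9.72 to 12.5) in the cortex of APP/PS1 mice, 8.15 (7.32 to 9.10) in their hippocampus and 1.57 (1.48 to 1.66) in C57BL/6 cortex, where the well parts overlapped. The other lane of APP/PS1-ApoeKO cortex had 6.36 RPM, under the 17.6 RPM of the lane used. Cells with a read of Slc5a10 numbered 9, 10, 12, 36, 23 and 27 in the 6 groups. In the same order, 3 cells held 52%, 75.9%, 53.7%, 22.6%, 50.7% and 41.3% of its reads. Slc12a7 had 12.8, 4.72, 30.4, 29.9, 11.5 and 31.01 RPM, with all 3 ApoeKO groups at 29.9 RPM or more. Its ratios were 2.38 (2.25 to 2.52), 6.34 (5.86 to 6.86) and 2.70 (2.58 to 2.82), but only in hippocampus did the well parts not overlap, and 3 cells held 75.3%, 95.5% and 51.4% of the reads in the 3 groups with Apoe.

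**Figure D3:**
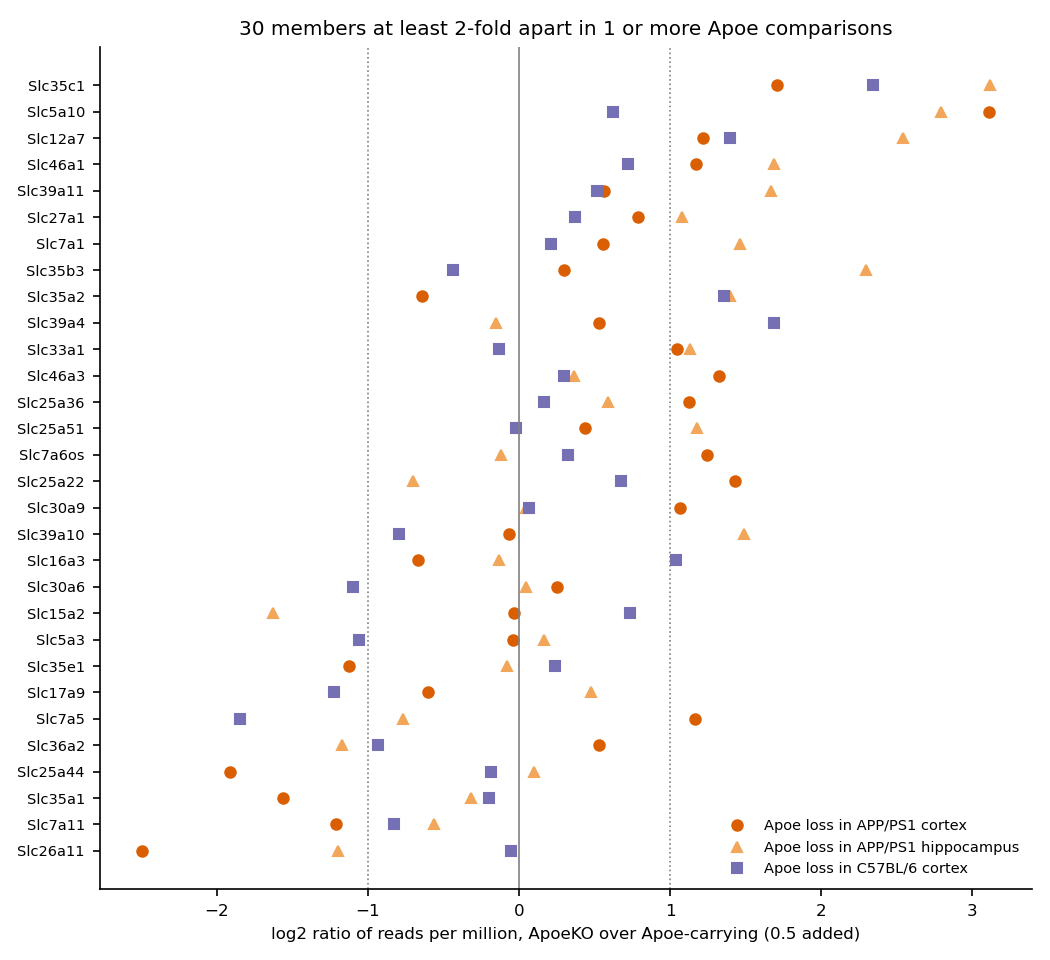
Log2 ratio of RPM, ApoeKO over Apoe-carrying, with 0.5 RPM added to both, for the 30 members at least 2-fold apart in 1 or more of the 3 Apoe comparisons. The share of all genes that far apart in 1 or more of them was not computed, so the 30 only select what is drawn. Dotted lines mark 2-fold, and only Slc35c1 and Slc12a7 have all 3 points beyond the right one, while Slc7a5 has points on both sides.

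Other members were higher in 1 or 2 pairs. In APP/PS1 hippocampus Slc35b3, another transporter of the sulfate donor PAPS, had 47.2 RPM without Apoe against 9.21 with it, a ratio of 5.12 (4.84 to 5.42), but the other 4 groups had 35.03 to 53.6 RPM, so the APP/PS1 hippocampus was the low group. In APP/PS1 cortex the mitochondrial glutamate carrier gene Slc25a22 stood at 35.8 against 12.98 RPM, 2.76-fold higher (2.61 to 2.92), yet at 15.2 against 25 in hippocampus. The other lane had 18.8 RPM of Slc25a22, under 2-fold above APP/PS1 cortex. Slc25a22 is the 1 member on the chromosome of Apoe, 121.7 Mb away. Slc7a6os was 2.40-fold higher in APP/PS1 cortex (48.2 against 20.1 RPM), and the other lane of APP/PS1-ApoeKO cortex had 15.4 RPM, which turns the direction. In C57BL/6 cortex the zinc importer gene Slc39a4 had 44.7 against 13.5 RPM with well parts that did not overlap (by the digit in the titles they did), and Slc16a3, a lactate exporter gene, 40.2 against 19.4 RPM.

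Among members lower without Apoe, Slc26a11 (ENSMUSG00000039908), which encodes a sulfate and chloride carrier, had 43.2, 30.6, 7.25, 13.03, 24.2 and 23.3 RPM. It was 5.96-fold lower in APP/PS1 cortex (5.47 to 6.52), with well parts of 4.36 to 9.50 against 34.2 to 53.8 RPM, and 2.35-fold lower in hippocampus (2.23 to 2.47), where the parts overlapped. The C57BL/6 pair differed little (ratio 0.964, 0.927 to 1.00), and the other lane of APP/PS1-ApoeKO cortex was lower still, at 2.60 RPM. Only 3 APP/PS1-ApoeKO cortex cells had a read (1.78%), against 33 in APP/PS1 cortex (10.6%). Slc26a11 passed the limit for members only in the APP/PS1 groups with Apoe, where it was highest, so its ratios are a description. The branched-chain amino acid carrier gene Slc25a44 was 3.91-fold lower in APP/PS1 cortex (9.60 against 37.6 RPM), but the other lane had 46.3 RPM, above APP/PS1. In hippocampus the peptide carrier gene Slc15a2 was 3.23-fold lower (7.59 against 24.5 RPM, 3.03 to 3.46), with parts of 4.69 to 11.8 against 19.2 to 30.6 RPM. In cortex it had 30.4 against 31.1 RPM in the lane used and 6.14 RPM in the other APP/PS1-ApoeKO lane, which is lower as in hippocampus. Of the cortex groups only APP/PS1 passed the limit for members with Slc15a2 (10.6% of cells, against 4.79% to 5.92% of cells used in the others). In the hippocampus pair the group with Apoe, where Slc15a2 was higher, passed it. The ratios of Slc15a2 are therefore a description.

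Slc7a5 (ENSMUSG00000040010, chr8:121881150-121907694, minus strand) had 9.91, 13.6, 22.8, 7.80, 25.8 and 6.80 RPM. Without Apoe it was 2.304-fold higher in APP/PS1 cortex (2.16 to 2.46) and 3.79-fold lower in C57BL/6 cortex (3.57 to 4.02). The parts of wells overlapped in neither pair (20.4 to 24.7 against 4.40 to 18.1, and 0.673 to 9.27 against 17.3 to 33.6 RPM). In hippocampus it was 1.75-fold lower with overlapping parts. The other lane of APP/PS1-ApoeKO cortex had 13.9 RPM, within the range of the APP/PS1 cortex parts. Whether the ratios differ between the pairs was not tested.

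Slc7a11 (ENSMUSG00000027737, chr3:49892526-50443614, minus strand) was read at a few reads per cell. Its levels were 2.08, 3.26, 0.615, 2.05, 6.89 and 3.67 RPM, and up to 83.95% of a group's reads lay in 3 cells, so its level turns on few cells. It was read in 11.9% (exact binomial interval 8.52 to 16.02), 13.6% (9.76 to 18.3), 2.96% (0.967 to 6.77), 6.27% (3.87 to 9.52), 14.7% (11.1 to 19.04) and 3.90% (2.03 to 6.71) of thinned cells, and in 23.8%, 21.98%, 6.51%, 10.9%, 24.5% and 8.63% of cells before thinning. All 3 ApoeKO groups lay below all 3 groups with Apoe in these shares. The intervals are over cells of 1 sample a group, which are not replicates. Of the 81 members that reached 10% of cells in 1 group of each pair, it was the 1 that was at least 2-fold lower by share in all 3, as were 42 of 5664 genes (0.742%), and no member was that much higher in all 3 (0.353% of genes). The median was between 3 and 8 reads in cells with a read, and at most 2.45% of a group's cells had 20 reads or more. The shares that the rule for members used are the same kind of value, so this is a description. In the other APP/PS1-ApoeKO cortex lane 7.27% of cells had a read, before thinning, but the level there was 6.98 RPM, above the 2.08 RPM of APP/PS1 cortex.

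**Figure D4:**
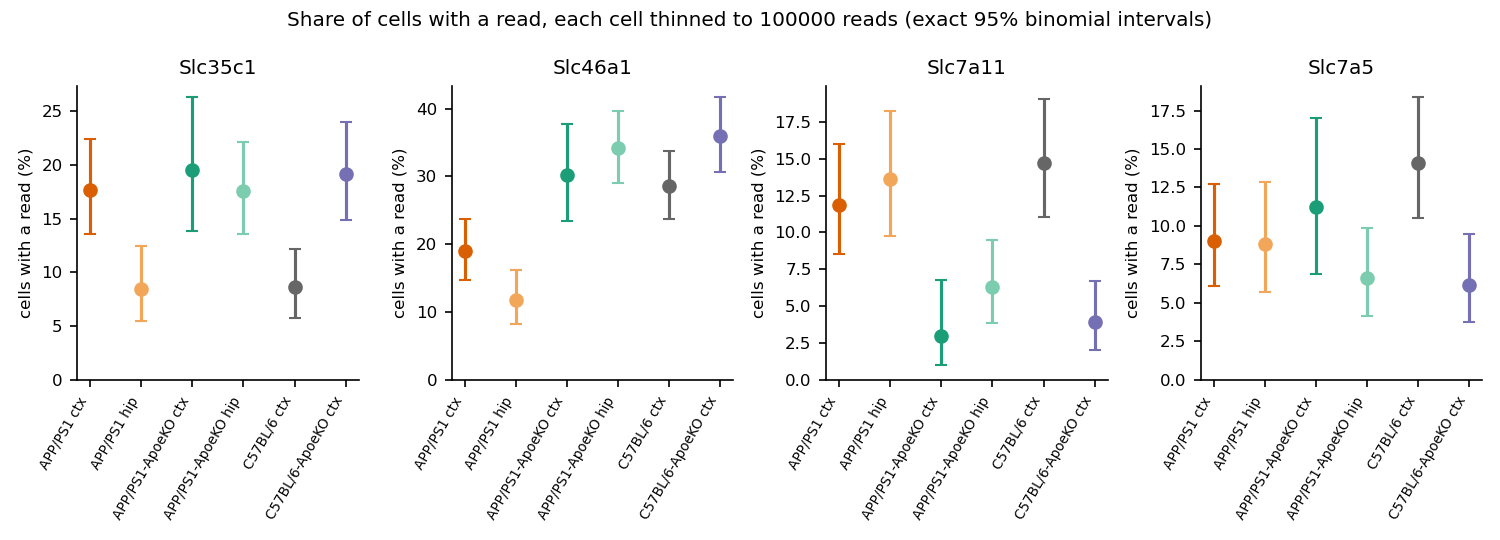
Percent of cells with a read of 4 members in the 6 groups, each cell thinned to 100000 reads. Bars are exact 95% binomial intervals over cells, which are not replicates, and axes start at 0. Slc7a11 is read in 11.9% to 14.7% of cells in groups with Apoe and in 2.96% to 6.27% without.

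Amyloid was compared in cortex in mice with Apoe, as APP/PS1 against C57BL/6, and in ApoeKO mice, as APP/PS1-ApoeKO against C57BL/6-ApoeKO. With Apoe, 5 members were at least 2-fold higher (4.35%, against 2.71% of all genes) and 7 lower (6.09%, against 4.58%). Without Apoe, 4 were higher (3.48%, against 4.10%) and 7 lower (6.09%, against 3.19%). Lane and 1 month of age differ with amyloid where Apoe is present, and lane where it is absent. The activated microglia markers summed to 1022 against 49.8 RPM with Apoe and to 249.96 against 148.9 without. The parts of wells did not overlap for 2 higher and 2 lower members with Apoe (1.48% and 2.00% of all genes) and for 4 and 2 without it (2.75% and 1.48%). By share of thinned cells 1 of 94 members, Slc35c1, was higher with Apoe (1.53% of all genes) and 0 lower (1.54%), and 1 of 88, Slc13a3, was higher without it (0.973%) and 0 lower (1.13%). Slc15a4, which is known for its part in Toll-like receptor signalling, had 144.7 RPM in APP/PS1 cortex against 64.4 in C57BL/6, 2.25-fold higher (2.20 to 2.29), with parts of 115.5 to 211.7 against 53.7 to 74.1 RPM, and without Apoe 105.1 against 108.4. The mitochondrial glycine carrier gene Slc25a38 had 38.5 against 17.3 RPM, 2.23-fold higher (2.15 to 2.32), with parts that did not overlap. Of the cortex groups only APP/PS1, where Slc25a38 was higher, passed the limit for members (10.9% of cells, against 5.83% in C57BL/6). The ratio of Slc25a38 is therefore a description. Slc5a10 was 5.90-fold lower with amyloid (1.59 against 9.40 RPM, 5.23 to 6.68) where Apoe was present, with parts that overlapped by the digit in the titles, and stood at 17.6 against 14.7 RPM where it was not. In the other APP/PS1-ApoeKO lane it had 6.36 RPM, which turns the latter direction.

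Without Apoe, Slc18b1, which encodes a vesicular polyamine carrier, had 63.3 RPM with amyloid against 22.97, 2.76-fold higher (2.65 to 2.87), and Slc16a10, a carrier of aromatic amino acids, 29.8 against 14.2, 2.11-fold higher (1.99 to 2.23). In both the parts of wells did not overlap, but by the digit in the titles those of Slc16a10 did. The other lane of APP/PS1-ApoeKO cortex had 31.05 RPM of Slc18b1, nearer to C57BL/6-ApoeKO and under 2-fold above it. Slc7a5 was 3.36-fold higher with amyloid without Apoe (3.12 to 3.61, with 13.9 RPM in the other lane against 6.80) and 2.60-fold lower with it (2.47 to 2.74). Slc25a39, the mitochondrial glutathione carrier gene, was 2.21-fold lower (63.9 against 141.2 RPM), but the other lane had 142.7 RPM. Slc7a11 was the member at least 2-fold lower in both amyloid comparisons, at 2.08 against 6.89 and 0.615 against 3.67 RPM, as were 21 genes in all (0.273%), with its reads in few cells as above. With the 6.98 RPM of the other lane the direction turns in the pair without Apoe, and it also turns without lane 38 of C57BL/6-ApoeKO, which had 6.77 RPM against 0.460 in lane 37. No member was at least 2-fold higher in both, against 24 genes (0.312%).

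Hippocampus was compared with cortex within APP/PS1, where both tissues shared their lanes, and within APP/PS1-ApoeKO, where they shared none. In APP/PS1, 2 members were at least 2-fold higher in hippocampus (1.74%, against 1.81% of all genes) and 6 lower (5.22%, against 1.91%). The parts of wells did not overlap for 1 higher (0.508% of all genes) and 3 lower members (0.573%), and by share of thinned cells 0 of 90 members were higher (0.297%) and 1, Slc35c1, lower (0.346%). Slc35c1 was 3.79-fold lower (4.998 against 18.9 RPM, 3.51 to 4.10) and Slc35b3 3.80-fold lower (9.21 against 35.03 RPM, 3.59 to 4.03), both with parts that did not overlap. The zinc importer gene Slc39a10 was 2.37-fold lower and Slc35f5 2.17-fold lower, with overlapping parts. Slc36a2, a proton-coupled amino acid carrier gene, was 2.28-fold higher (40.7 against 17.9 RPM), and its parts overlapped. Of this pair only the hippocampus passed the limit for members with Slc36a2, which was read in 4.50% of APP/PS1 cortex cells. Its ratio is therefore a description.

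In APP/PS1-ApoeKO, 8 members were higher in hippocampus (6.96%, against 2.75%) and 6 lower (5.22%, against 4.46%). The parts of wells did not overlap for 5 higher (1.48% of all genes) and 5 lower members (2.89%), and by share 1 of 94, Slc7a6, was higher (0.768%) and 1, Slc13a3, lower (0.576%). Slc13a3, a dicarboxylate carrier gene, was 3.15-fold lower (15.6 against 49.01 RPM, 2.99 to 3.32) with parts of 5.85 to 26.3 against 34.9 to 60.004, and the other cortex lane had 38.6 RPM. Slc7a6 was 2.65-fold higher (93.7 against 35.4 RPM, 2.54 to 2.76), and the other cortex lane had 47.6 RPM. The UDP-galactose transporter gene Slc35a2 was 2.43-fold higher (38.1 against 15.7 RPM), and that lane had 31.2 RPM. Slc17a9, which loads ATP into vesicles, was 2.91-fold higher (31.5 against 10.8 RPM), but that lane had 33.3 RPM, above hippocampus. No member was at least 2-fold apart in the same direction in both tissue comparisons, against 10 genes higher (0.130%) and 17 lower (0.221%).

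A fit over sums allowed a test of each factor with 1 residual degree of freedom. With edgeR's quasi-likelihood test over the 4 cortex sums, 0 of 17199 genes passed an adjusted p of 0.05 for Apoe or for amyloid, and over the 4 sums of APP/PS1 and APP/PS1-ApoeKO 0 of 16552 for tissue (0% in each). 859 genes (4.99%) had an unadjusted p under 0.05 for Apoe, with 9 members among them, 617 (3.59%) for amyloid with 3 members and 506 (3.06%) for tissue with 5. For Slc35c1 the Apoe log2 fold change was 1.91 (SE 0.35, adjusted p = 0.919), and for Slc46a1 0.80 (SE 0.19, adjusted p = 0.919), higher without Apoe in both cortex pairs. With DESeq2 on the same sums, 539 of 15245 genes passed for Apoe (3.54%), among them the 2 members Slc35c1 and Slc46a1, and 2.01% of genes passed for amyloid and 1.07% for tissue, with 0 members in either. Over all 6 sums, edgeR called 5 of 18171 genes for Apoe (0.0275%) and 0 for the other terms, with 0 members. These 2 genes thus lay on either side of the threshold according to the tool.

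Within APP/PS1, cells with reads of at least 3 of the 8 activation markers were set against cells with none. Marker cells numbered 60 in cortex and 29 in hippocampus, cells with none made up 48.9% and 69.96% of the group, and 99 and 53 cells lay between. Cells of 1 group are not replicates, so the values are a description. 6 members were at least 2-fold higher in the marker cells in cortex (5.22%, against 5.70% of all genes) and 18 lower (15.7%, against 18.7%), and in hippocampus 12 were higher (10.4%, against 6.68%) and 27 lower (23.5%, against 29%). 4 members were higher in both tissues. The share of all genes higher in both was not computed, so this count is not a result about the carriers. Slc16a3 had 85.3 against 26.9 RPM in cortex and 26 against 10.7 in hippocampus. The mitochondrial citrate carrier gene Slc25a1 had 114.4 against 51.2 and 129.6 against 64.03 RPM. The lysosomal peptide carrier gene Slc15a3 had 83.5 against 37.1 and 99.1 against 33.8 RPM, and Slc7a6 74.5 against 32.7 and 141.9 against 47.

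Members lower in the marker cells of both tissues included the mitochondrial iron carrier gene Slc25a37 (30.7 against 87.6 RPM in cortex, 9.82 against 65.9 in hippocampus), the aspartate and glutamate carrier gene Slc25a12 (17.5 against 44.3, and 9.88 against 51.6) and Slc13a3 (3.16 against 64.7, and 7.31 against 28.1). Slc30a6, Slc36a2, Slc5a10, Slc8a1 and Slc9a7 were also at least 2-fold lower in both. The share of all genes lower in both was not computed either. Slc35c1 was lower in marker cells in cortex (9.70 against 27.5 RPM) and similar in hippocampus (4.06 against 5.01). Slc46a1 had 91.7 against 91.2 RPM in cortex and 67.6 against 68.8 in hippocampus.

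**Figure D5:**
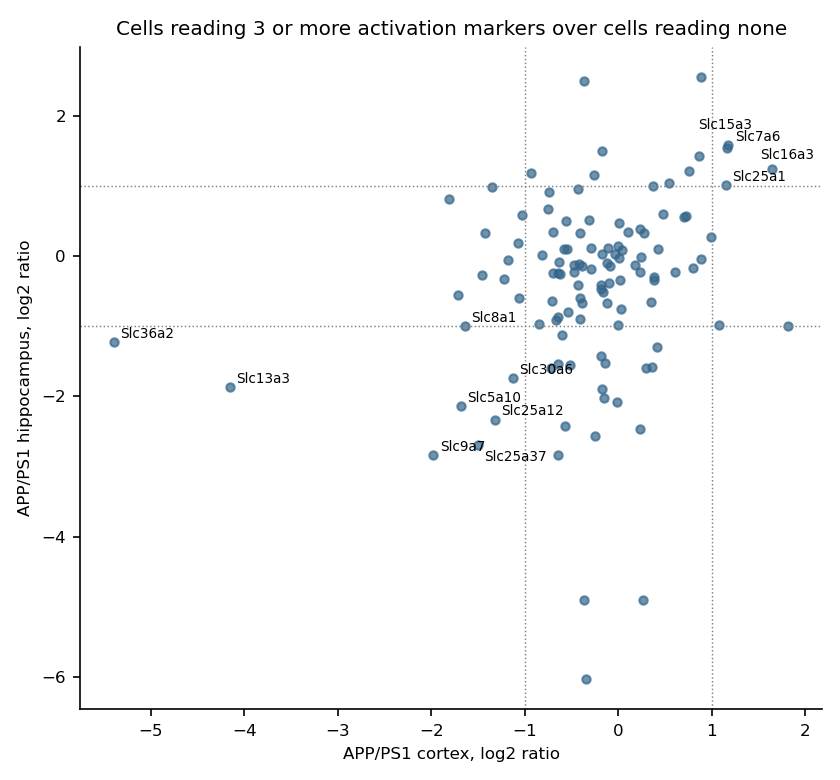
Log2 ratio of RPM in cells with at least 3 of 8 activation markers over cells with none, in APP/PS1 cortex (x axis) and hippocampus (y axis), 1 point for each member, with dotted lines at 2-fold and members beyond them in the same direction in both tissues named. Slc7a6, Slc15a3, Slc16a3 and Slc25a1 lie in the upper right corner.

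Of 25 transporter genes with other symbols, 16 were read in at least 10% of cells of a group, and in the 7 comparisons 0 or 1 of them was at least 2-fold apart in each direction, where the shares of all genes ran from 1.81% to 8.84%. Ucp2, the gene of a mitochondrial uncoupling protein, had 1242, 1296, 1386, 1182, 981 and 1007 RPM, and Slco2b1, an organic anion carrier gene, 849, 854, 986, 1049, 976 and 957. Of 5 chaperone and subunit genes 3 were read in that many cells, and none was 2-fold apart. Bsg, the chaperone of monocarboxylate carriers, had 389, 375.7, 292.5, 317.5, 337.3 and 392 RPM. Of 12 genes of the amino acid response 7 were read that widely: without Apoe 1 was at least 2-fold higher in APP/PS1 cortex (8.84% of all genes) and 1 lower in APP/PS1 hippocampus (3.57%), and 1 was higher with amyloid where Apoe was present (2.71%). The gene higher without Apoe was Ddit4, at a low level of 2.47 against 0.924 RPM. It was read in 7.69% of cells without Apoe and 8.04% with it. Of 9 genes of the oxidative response 5 were read that widely, and the 1 that was 2-fold apart was lower without Apoe in APP/PS1 hippocampus (3.57% of all genes).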

How the data were processed

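The deposited table holds whole-number read counts per gene and cell, made by the authors; per the submitters' processing notes the genome was mm10 and the tools included featureCounts 1.5.1, STAR 2.5.2 and Seurat 2.3.1. How strand and overlapping genes were counted was not given in the sources used here. Of 1878 cells, the 1713 for which the labels give a depth (68354 reads or more) were summed by group, and 165 APP/PS1-ApoeKO cortex cells of another lane entered the rule for members and an alternative. Cells used numbered 311 in APP/PS1 cortex, 273 in APP/PS1 hippocampus, 169 and 321 in APP/PS1-ApoeKO cortex and hippocampus, 326 in C57BL/6 cortex and 313 in C57BL/6-ApoeKO cortex. Of 339 Slc genes, 119 passed the limit and 115 are members. Depths are given in the report. Levels are RPM; log2 ratios have 0.5 RPM added to both levels, and ratio intervals (95%) are conditional binomial. Exon lengths and coordinates are from GENCODE on GRCm38. For shares, cells were thinned to 100000 reads and 8 shallower cells were left out. Cells of a group formed 1 sample. Terms were fitted with edgeR 4.0.16 (quasi-likelihood, Benjamini-Hochberg, over all genes) and DESeq2 1.42.0. The edgeR fit and the ratio of levels were run on simulated counts, and DESeq2 was not.

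The members and lists were chosen with earlier results of these data known. Named were the 15 highest members per length, the highest of each class, up to 5 higher and 5 lower members per comparison (at least 2-fold, 10 RPM and reads in 10% of cells in 1 group), the 3 on each side of the limit, and those 2-fold apart in all Apoe or both amyloid comparisons. Other named members were chosen after their values were seen. Parts of wells follow the plate number of the labels, which for 236 of the cells used differs from the digit in their titles, and are not biological replicates.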

Additional observations from a re-analysis of the deposited data

Results flagged for a closer look

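The log2 ratio of Slc7a5 without Apoe was 1.16 in APP/PS1 cortex and -1.85 in C57BL/6 cortex. It stands out because every part of the wells used lay on one side in the first pair and on the opposite side in the second. The other lane of APP/PS1-ApoeKO cortex had 13.9 RPM, within the range of the APP/PS1 cortex parts. In APP/PS1 hippocampus Slc7a5 was lower without Apoe, as in C57BL/6 cortex, with overlapping parts. The difference between the pairs was not tested. The second pair shared its lanes and the first did not, and the labels differ by 1 month of age in the first.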

How the results depend on the processing

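The counts of members at least 2-fold apart (16 for Apoe loss in APP/PS1 cortex, 15 in APP/PS1 hippocampus and 9 in C57BL/6 cortex, 12 for amyloid with Apoe and 11 without, 8 for tissue in APP/PS1 and 14 in APP/PS1-ApoeKO) moved with the processing. Without the 3 cells with most reads of each gene they were 28, 15 (C57BL/6), 21 (amyloid without Apoe), 17 and 27 (tissue). With 5 RPM added they were 10 (Apoe in APP/PS1 cortex), 6 and 7 (amyloid) and 3 (tissue in APP/PS1). With the cells without labelled depth they were 7 (Apoe in APP/PS1 cortex), 6 (amyloid without Apoe) and 7 (tissue in APP/PS1-ApoeKO). For these settings, and those without a lane or plate number, shares of all genes are not given. The changes in count are therefore not results about the carriers. Without the 3 cells the median log2 ratio of all genes moved from 0.16 to -0.04 for Apoe in APP/PS1 cortex. In C57BL/6 cortex it moved from 0.03 to 0.01. The 3 cells are also a larger part of APP/PS1-ApoeKO cortex, the smallest group, than of the others. Leaving out 1 lane or plate number at a time gave 15 to 25, 14 to 18 and 8 to 22 for Apoe, 10 to 16 and 10 to 17 for amyloid, and 8 to 13 and 14 to 20 for tissue, with the highest Apoe counts without plate number 4 and without lane 38. Alternatives chosen after seeing the data were shares of thinned cells (3, 7, 4, 1, 1, 1 and 2 members), well parts that do not overlap (8 for Apoe in hippocampus, 3 in C57BL/6, 4 and 6 for amyloid, 4 for tissue in APP/PS1), the same with parts by the digit in the titles (9 and 4 for Apoe in hippocampus and C57BL/6, 4 and 6 for amyloid, 4 and 8 for tissue) and the other lane of APP/PS1-ApoeKO cortex alone. Of the 82 log2 ratios followed, that lane enters only those for Apoe in APP/PS1 cortex, amyloid without Apoe and tissue in APP/PS1-ApoeKO. Among the ratios of these comparisons that were at least 2-fold apart, it reversed 9. For Apoe these were Slc25a44 (0.30), Slc35e1 (0.28), Slc7a6os (-0.37) and Slc7a11 (1.54). For amyloid they were Slc25a39 (0.015), Slc35e1 (0.37) and Slc7a11 (0.84), and for tissue Slc17a9 (-0.081) and Slc25a44 (-0.39). Slc7a11 was also reversed with the cells without labelled depth added (0.70 for Apoe, 0.0091 for amyloid without Apoe) and for amyloid when 1 lane or plate number was left out (-2.71 to 0.22, reversed without lane 38). The cause was not tested. Cells with at least 2 markers against the rest gave 13 members apart in APP/PS1 cortex in place of 24, a limit of 20% gave 64 members (18.9% of the Slc genes in place of 33.9%), and DESeq2 called 2 members for Apoe where edgeR called 0. Under every setting run for them, 13 of the 82 ratios stayed at least 2-fold. Only some of the 13 met the other lane and the cells without labelled depth. These were Slc26a11, Slc35c1 and Slc5a10 for Apoe in APP/PS1 cortex and Slc13a3 for tissue in APP/PS1-ApoeKO. The rest were in comparisons without APP/PS1-ApoeKO cortex and did not meet them. For Apoe in hippocampus they were Slc12a7, Slc15a2, Slc35b3, Slc35c1, Slc46a1 and Slc5a10. For Apoe in C57BL/6 cortex it was Slc35c1, and for tissue in APP/PS1 Slc35b3 and Slc35c1. Slc12a7 and Slc5a10 passed the limit for members only in APP/PS1-ApoeKO hippocampus. Slc15a2 passed it in APP/PS1 hippocampus, the group of its pair where it was higher, and in no cortex group but APP/PS1. TMM scaling moved the median log2 ratio of all genes from 0.16 to -0.07 for Apoe in APP/PS1 cortex, from -0.10 to 0.01 for amyloid with Apoe and from -0.12 to 0.05 for tissue in APP/PS1-ApoeKO. No paired analysis was possible because each group is 1 sample and the labels give no replicate numbers that join groups. Depth limits genes under a few RPM: 3 reads over a group are 0.0124 to 0.0401 RPM.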

Other observations

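Several members not described above were widely read. Slc6a6, the taurine transporter gene, had 137.2, 152.7, 194.5, 191.6, 112.7 and 166.3 RPM, and Slc23a2, the gene of a vitamin C transporter, 203.6, 176.7, 190.6, 196.5, 127.3 and 231.4, both lowest in C57BL/6 cortex. Slc12a2, which encodes a sodium, potassium and chloride cotransporter, had between 55.8 and 68.3 RPM. The zinc importer gene Slc39a1 was read in 35.2% to 47.6% of cells of each group, but in cells with a read the median was 5 to 7 reads, and 7.79% to 13.4% of cells had 20 reads or more.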
